A study of Homo sapiens with 12 samples.

Results

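The Krüppel-like factor (KLF) genes described here are KLF2, KLF3, KLF4, KLF5, KLF6, KLF7, KLF9, KLF10, KLF11 and KLF15, taken from the gene table by their symbols. They are 10 of its 28901 named genes. PolyA RNA was sequenced from adipocytes of ASC52telo hTERT, a telomerase-immortalized line of human adipose stromal cells, after 14 days of differentiation culture. Cells carried either a scramble shRNA (called WT in the labels) or an shRNA against linc-ADAIN, an adipose long intergenic non-coding RNA, and were left without LPS or received LPS, a bacterial endotoxin, at 100 ng/mL for 4 h. The 4 groups, scramble, scramble with LPS, linc-ADAIN knockdown (KD) and KD with LPS, held 3 libraries each. Each shRNA was delivered by a lentiviral pLVX-shRNA2 vector with ZsGreen, and the transduced cells were sorted for ZsGreen, so each arm is a sorted pool of a single line with a single hairpin. All groups were differentiated with insulin, dexamethasone, isobutylmethylxanthine, rosiglitazone, pantothenate and biotin, and insulin and dexamethasone, a glucocorticoid, stayed in the medium to the end. The 3 libraries of a group came from 1 experiment in triplicate, so p-values measure the spread within that experiment, and 0.1 is the smallest two-sided p that an exact permutation test of 3 libraries against 3 allows. linc-ADAIN levels were not analysed here, so the KD label was not checked in these libraries.

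KLF proteins bind CACCC and GC-box elements of DNA through zinc fingers at their C-terminus, and differ in the N-terminal parts that recruit coactivators or corepressors. In the differentiation of fat cells they act at successive steps. KLF4 and KLF5 act early, KLF4 upstream of C/EBPβ and KLF5 after C/EBPβ and C/EBPδ, on the way to PPARγ, the master regulator of adipocytes. KLF6, KLF9 and KLF15 promote differentiation, and KLF2, KLF3 and KLF7 hold it back. KLF10 and KLF11 were first known as early response genes of TGF-β, KLF9 and KLF15 are targets of glucocorticoids, and KLF2 and KLF4 are known from endothelium as targets of the ERK5 kinase and MEF2 factors.

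RefSeq start sites were given for 8 of the 10 members, with 13 starts in all. The 250 bases before a start are shown for KLF2, KLF4 and KLF5, whose levels differed at least 2-fold between KD and scramble with and without LPS. The windows of KLF7, the other member of that kind, are not shown. Sequences are from RefSeq on GRCh38.p14, written 5′ to 3′ on the strand of the gene and ending at the base before the start, and capitals mark each match, on either strand, to CACCC, to the GC box GGGCGG or to a κB-type motif read as GGG, any 2 bases, TT, any base and CC.
KLF5, upstream start, chr13:73054726-73054975, plus strand: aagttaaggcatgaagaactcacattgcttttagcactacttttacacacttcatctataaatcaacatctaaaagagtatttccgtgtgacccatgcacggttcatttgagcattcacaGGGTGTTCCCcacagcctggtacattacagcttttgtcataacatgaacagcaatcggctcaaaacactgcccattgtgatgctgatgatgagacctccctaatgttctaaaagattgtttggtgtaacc
KLF5, downstream start, chr13:73058755-73059004, plus strand: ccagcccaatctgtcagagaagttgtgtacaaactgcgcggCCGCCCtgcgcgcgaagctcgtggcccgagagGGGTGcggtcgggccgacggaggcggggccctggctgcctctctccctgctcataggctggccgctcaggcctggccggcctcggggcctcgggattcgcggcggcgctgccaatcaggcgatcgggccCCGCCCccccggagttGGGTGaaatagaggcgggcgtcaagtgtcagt
KLF4, chr9:107489770-107490019, minus strand: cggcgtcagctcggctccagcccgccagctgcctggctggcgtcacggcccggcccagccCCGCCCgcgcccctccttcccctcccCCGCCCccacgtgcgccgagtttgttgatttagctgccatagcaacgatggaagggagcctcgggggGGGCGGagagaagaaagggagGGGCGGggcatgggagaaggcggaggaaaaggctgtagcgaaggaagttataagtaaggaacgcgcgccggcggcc
KLF2, chr19:16324576-16324825, plus strand: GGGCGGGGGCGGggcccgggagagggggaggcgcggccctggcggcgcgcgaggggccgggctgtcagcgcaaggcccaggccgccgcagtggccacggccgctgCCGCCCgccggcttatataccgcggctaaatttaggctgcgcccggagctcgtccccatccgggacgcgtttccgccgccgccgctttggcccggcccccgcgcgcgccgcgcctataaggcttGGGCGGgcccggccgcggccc

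The windows of KLF5 differed in make-up. The upstream one was 40.8% G and C and held a κB-type match that begins 130 bases before the start, and the 1 CACCC match of this window lies inside it on the other strand. The downstream one, before the start of the canonical transcript, was 70.8% G and C, with 2 CACCC and 2 GC-box matches and no κB-type match. The windows of KLF4 and KLF2 were 69.2% and 80.0% G and C and held 4 GC-box matches each. Of 35116 RefSeq windows of 250 bases, 54.7% held a CACCC match, 42.6% a GC box and 5.07% a κB-type match. A match is a match of letters only, and counts summed per gene cannot tell from which KLF5 start the reads came.

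Counts on named genes totalled 28.4 to 53.8 M (1 M is 1e6) per library, and within groups the libraries correlated at r = 0.98 to 0.991 in log2 CPM (counts per 1e6). All 10 members had at least 31 counts in every library and passed the filter in every fit. The labelled adipocyte was checked against its markers. ADIPOQ, PLIN1, FABP4, CIDEC and PLIN4 were detected in each group, whereas LPL and LEP were near 0 throughout, with at most 82 counts in a library. The summed level of the 7 adipocyte markers was 3060 to 4270 CPM in scramble and 3560 to 4130 CPM in scramble with LPS, but 599 to 1770 CPM in KD and 482 to 1150 CPM in KD with LPS. In both KD comparisons 5 of the 7 were lower. The 7 stromal and preadipocyte markers summed to 4630 to 5770 CPM in the scramble libraries and 7010 to 9350 CPM in the KD libraries. This sum follows DCN, which was at 2670 ± 487 CPM in scramble and 4900 ± 413 CPM in KD, and is no general rise of the list. In KD without LPS 4 of the list were higher, and 2, THY1 and PDGFRB, were lower (log2 fold changes -2.37 and -0.90). With LPS 3 were higher and 2 lower in KD, with a median log2 fold change of -0.07 over the list. Summed smooth muscle and pericyte markers went from 129 to 140 CPM in scramble to 33.5 to 40.5 CPM in KD. Endothelial markers summed to at most 27.2 CPM, macrophage and leukocyte markers to at most 69 CPM and epithelial markers to at most 1.69 CPM, and the endothelial gene CLDN5 and the macrophage gene AIF1 had no counts. These marker differences run with every KD difference given below, and their part in them was not tested. In bulk RNA, fewer cells of a type and less RNA per cell cannot be told apart.

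Levels of different members are comparable only per length, here as CPM per kilobase of the canonical GENCODE transcript. In scramble adipocytes KLF6 led at 78.9 ± 5.01 CPM per kilobase (SD, n = 3), followed by KLF10 at 66.1 ± 2.4. These genes held 32.7% and 27.4% of the summed level of the 10. KLF9, KLF4 and KLF7 came next at 26.7, 23.4 and 21.6 CPM per kilobase, each overlapping the next in range, then KLF15 at 11.9, KLF3 at 8.13 and KLF11 at 3.98. KLF2 at 0.537 and KLF5 at 0.214 CPM per kilobase closed the order, and KLF5 held 0.0888% of the sum. In KD with LPS the same measure of KLF5 was 9.89 ± 0.958, or 4.59% of the sum. It was then seventh of 10, within the range of KLF4 at 10.6 CPM per kilobase and above KLF7, which had gone from 21.6 to 4.38. In scramble with LPS the order was led by KLF10 at 57.0 and KLF9 at 49.1, whose ranges overlapped, with KLF6 next at 35.9. The sum over the 10 genes varied far less than its parts. It was 239 to 245 CPM per kilobase in scramble and 230 to 242 in KD, which overlap, against 206 to 229 and 206 to 220 with LPS.

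**Figure D1:**
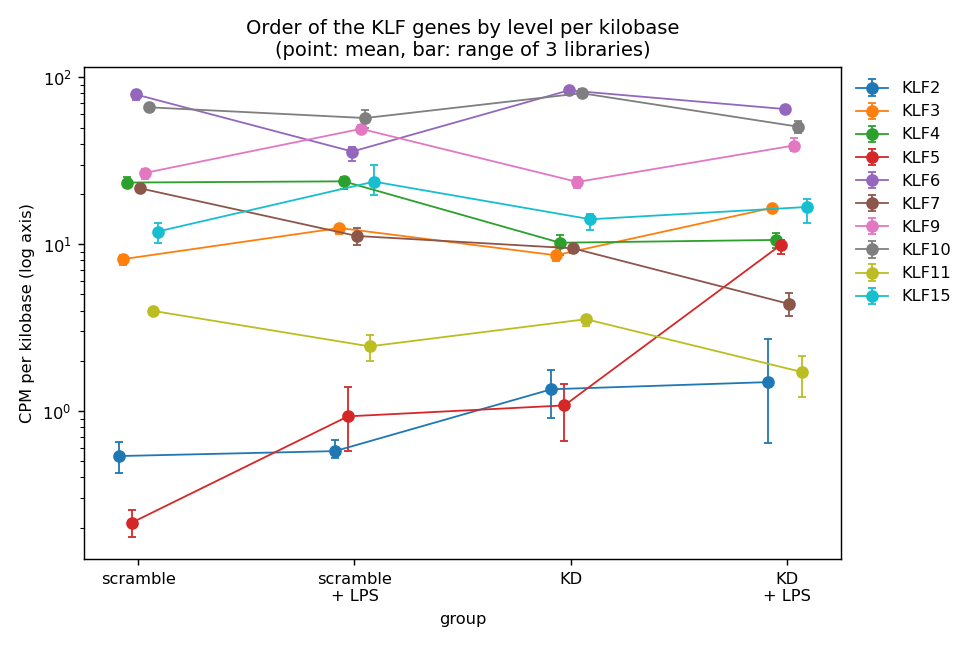
CPM per kilobase of canonical transcript (log axis) of the 10 KLF genes in the 4 groups; points are means and bars the range of 3 libraries. KLF5 goes from 0.214 in scramble to 9.89 in KD with LPS while KLF7 goes from 21.6 to 4.38.

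KLF5, which is induced by C/EBPβ and C/EBPδ and activates the PPARG2 promoter, had the lowest counts of the 10 members in scramble and the widest range of levels among them. The gene spans 73054976 to 73077541 on the plus strand of chromosome 13 (GRCh38, GENCODE release 44), and its canonical transcript has 4 exons. Its counts were 31, 45 and 33 in the scramble libraries and 75, 84 and 198 in scramble with LPS. KD libraries had 77, 261 and 152 counts, and KD with LPS 1251, 1369 and 982. As CPM, KLF5 was at 0.589, 0.856 and 0.709 in scramble, 1.92, 2.77 and 4.64 in scramble with LPS, 2.22, 4.85 and 3.75 in KD, and 35.4, 29.4 and 34.5 in KD with LPS. No library outside KD with LPS came near those 3, and LPS in scramble and KD alone gave overlapping ranges. The mean in KD with LPS was 46.1 times that in scramble, a ratio of means with no test of its own. LPS raised KLF5 by 2.13 on the log2 scale in scramble (SE 0.383, adjusted p = 0.0031 from edgeR's test) and by 3.18 in KD (SE 0.217, adjusted p = 1.4e-07). KD against scramble gave 2.33 without LPS (SE 0.364, adjusted p = 5e-04) and 3.40 with LPS (SE 0.244, adjusted p = 2.1e-07), and in each of these 4 comparisons the groups did not overlap. The effects differed by 1.07 on the log2 scale (SE 0.419), which missed the threshold for the interaction (adjusted p = 0.31, and 0.08 to 0.61 over the alternatives). A KD effect on KLF5 that depends on LPS was therefore not detectable with these libraries, with few counts behind the scramble value.

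KLF4, which works with EGR2 to switch on CEBPB early in differentiation, separated the libraries by shRNA. It was at 67.9, 74.2 and 64.4 CPM in scramble and 62.5, 73.6 and 73.2 CPM in scramble with LPS. The KD libraries had 33.3, 31.4 and 25.2 CPM and those of KD with LPS 34.3, 27.9 and 31 CPM. All 6 KD libraries lay below all 6 scramble libraries. KLF4 was 2.29-fold lower in KD without LPS (log2 fold change -1.20, SE 0.11, adjusted p = 8.6e-06 from edgeR's test) and 2.25-fold lower with LPS (-1.17, SE 0.106, adjusted p = 2.2e-06). For LPS its log2 fold change was 0.03 in scramble (SE 0.0895) and 0.05 in KD (SE 0.128), with adjusted p of 0.87 and 0.88, and with libraries scaled by their totals alone the sign of both turned (-0.0074 and -0.0021). The gene lies at 107484852 to 107490482 on the minus strand of chromosome 9.

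KLF6, which represses the preadipocyte gene DLK1, was the member whose LPS response differed between the arms. DLK1 itself had no counts in any library. KLF6 was at 378, 373 and 336 CPM in scramble and 174, 145 and 176 CPM in scramble with LPS. In KD it was at 375, 389 and 386 CPM, and in KD with LPS at 293, 290 and 305 CPM. The scramble and KD libraries overlapped without LPS, and with LPS every KD library was above every scramble library. LPS lowered KLF6 2.18-fold in scramble (log2 fold change -1.12, SE 0.0919, adjusted p = 1e-05 from edgeR's test) and 1.29-fold in KD (-0.37, SE 0.0661, adjusted p = 0.0016). KD against scramble was 0.08 on the log2 scale without LPS (SE 0.0732, adjusted p = 0.44) and 0.84 with LPS (SE 0.0865, adjusted p = 6.8e-06). The test of this difference gave 0.76 (SE 0.112, adjusted p = 0.0015 from edgeR's test over 12 libraries), the only interaction called among the 10. KLF6 lies at 3775996 to 3785281 on the minus strand of chromosome 10.

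KLF9, a target of the glucocorticoid receptor that cooperates with C/EBPα on PPARG2, was at 128, 141 and 148 CPM in scramble and 255, 241 and 271 CPM in scramble with LPS. It was at 125, 131 and 113 CPM in KD and 225, 195 and 188 CPM in KD with LPS. Every library with LPS was above every library without. The rise with LPS was 1.86-fold in scramble (log2 fold change 0.89, SE 0.0815, adjusted p = 2.2e-05 from edgeR's test) and 1.65-fold in KD (0.72, SE 0.088, adjusted p = 6e-05). KD and scramble overlapped without LPS (-0.17, SE 0.0852, adjusted p = 0.16), while with LPS KLF9 was 1.26-fold lower in KD (-0.34, SE 0.0854, adjusted p = 0.0097). Without scramble with LPS replicate 3 that last difference was -0.29 (SE 0.0981, adjusted p = 0.055), a like size with 1 library fewer. The interaction did not pass (adjusted p = 0.7).

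KLF15, a further glucocorticoid target that promotes GLUT4 expression, was at 34.1, 25.6 and 31 CPM in scramble and 54.6, 76.1 and 49.7 CPM in scramble with LPS. In KD it was at 38.6, 30.9 and 38.3 CPM, and in KD with LPS at 33.7, 47.3 and 46 CPM. The scramble arm showed no overlap between LPS and no LPS, and the KD arm did overlap. LPS raised KLF15 2-fold in scramble (log2 fold change 1.00, SE 0.154, adjusted p = 0.001 by edgeR), and the value in KD was 0.24 (SE 0.135, adjusted p = 0.32). KD with LPS was 1.42-fold below scramble with LPS (-0.51, SE 0.159, adjusted p = 0.031). Without scramble with LPS replicate 2, which had the highest value, that difference was -0.30 (adjusted p = 0.14), and without KD with LPS replicate 1 it was -0.37 (adjusted p = 0.12). The interaction of -0.75 (SE 0.224) missed the threshold in edgeR's test (adjusted p = 0.13) and passed it in DESeq2 (adjusted p = 0.039). SLC2A4, the gene of GLUT4, had 2 to 22 counts per library, too few to compare.

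**Figure D2:**
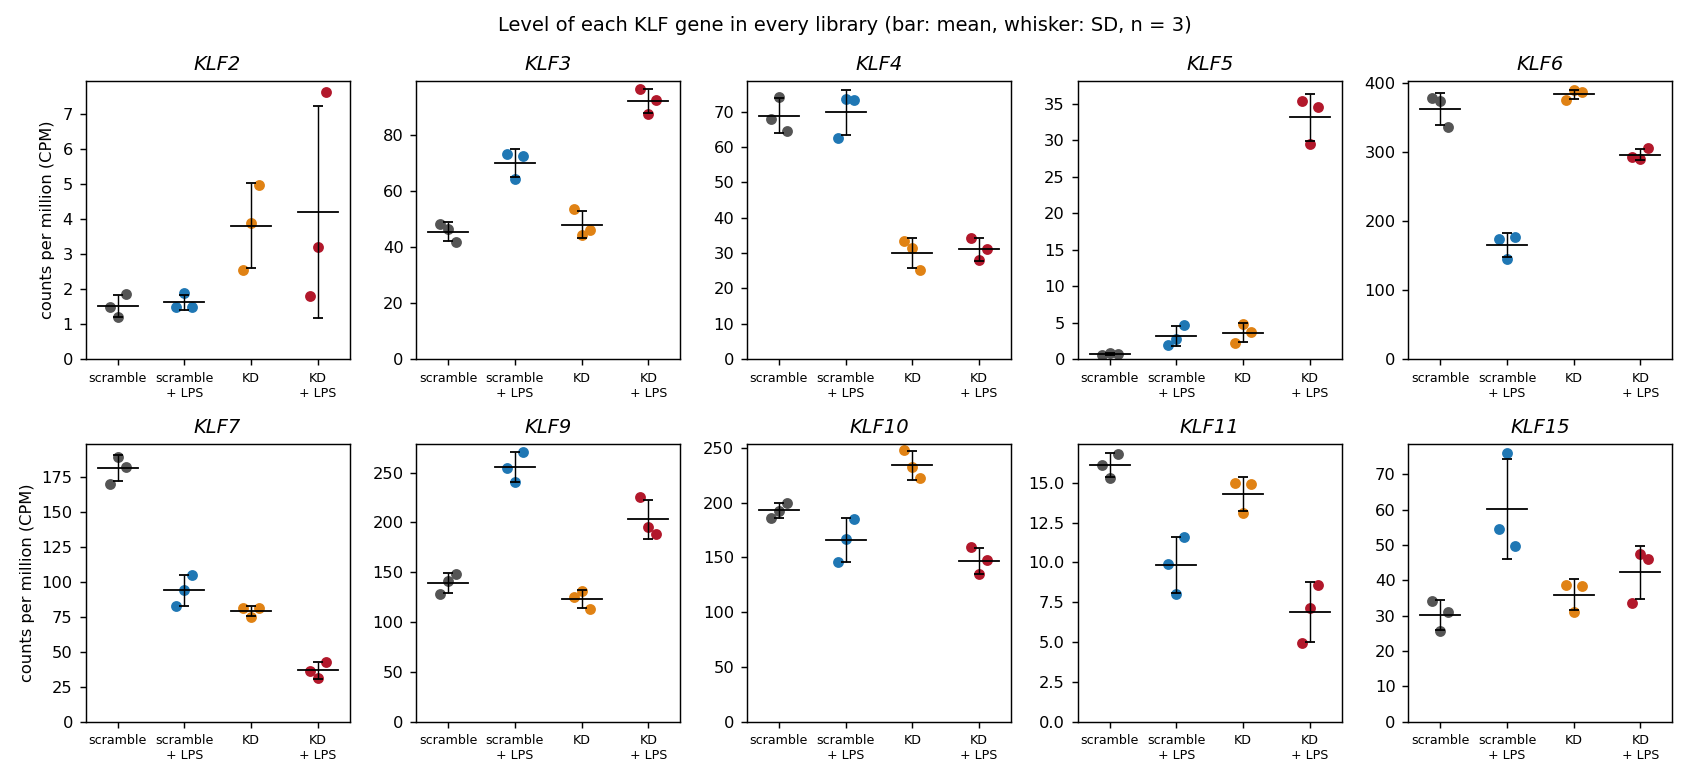
CPM of each KLF gene in every library, by group, on linear axes from 0; points are libraries, bars the mean and whiskers the SD of 3. KLF5 in KD with LPS lies between 29.4 and 35.4, above all other libraries, and KLF4 splits by shRNA and KLF9 by LPS.

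Among the members that hold differentiation back, KLF7 fell with each perturbation. It was at 170, 189 and 182 CPM in scramble, 82.6, 93.8 and 105 CPM in scramble with LPS, 81.2, 74.5 and 81.2 CPM in KD, and 36.2, 31 and 42.8 CPM in KD with LPS. The scramble libraries without LPS lay above all others and those of KD with LPS below all others. KD lowered KLF7 2.28-fold without LPS (log2 fold change -1.19, SE 0.0778, adjusted p = 5.8e-07 from edgeR's test) and 2.56-fold with LPS (-1.36, SE 0.124, adjusted p = 2.4e-06). LPS lowered it 1.91-fold in scramble (-0.93, SE 0.093, adjusted p = 4.5e-05) and 2.16-fold in KD (-1.11, SE 0.115, adjusted p = 1.2e-05). The interaction was -0.16 (SE 0.15, adjusted p = 0.77). KLF7 lies at 207074137 to 207173856 on the minus strand of chromosome 2.

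KLF2, which represses the PPARG2 promoter in preadipocytes, was a low and variable member. Its counts were 79, 63 and 86 in scramble, 58, 57 and 64 in scramble with LPS, 89, 210 and 202 in KD, and 64, 149 and 217 in KD with LPS. As CPM these were 1.2 to 1.85 in scramble, 1.48 to 1.88 in scramble with LPS, 2.56 to 4.99 in KD, and 1.81, 3.21 and 7.63 in KD with LPS. The groups did not overlap without LPS and did overlap with LPS. KLF2 was 2.53-fold higher in KD without LPS (log2 fold change 1.34, SE 0.316, adjusted p = 0.0079 from edgeR's test) and 2.59-fold higher with LPS (1.37, SE 0.451, adjusted p = 0.038). The value with LPS rested on KD with LPS replicate 3, without which it was 0.63 (adjusted p = 0.33). Leaving out any of 4 other libraries gave log2 fold changes of 1.31 to 1.53, about as large, with adjusted p of 0.051 to 0.11. For LPS the log2 fold changes were 0.11 and 0.13, with standard errors of 0.33 and 0.421.

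KLF3, which recruits the corepressor CtBP to the CEBPA promoter, rose with LPS in both arms. It was at 48.2, 46.5 and 41.7 CPM in scramble and 73.3, 64.2 and 72.6 CPM in scramble with LPS. KD libraries were at 53.5, 44.2 and 46.2 CPM and KD with LPS at 96.2, 87.5 and 92.6 CPM, above every other library. The rise was 1.55-fold in scramble (log2 fold change 0.64, SE 0.0888, adjusted p = 0.00055 from edgeR's test) and 1.92-fold in KD (0.94, SE 0.0952, adjusted p = 9.8e-06). KD against scramble was 0.08 without LPS (SE 0.0974, adjusted p = 0.6) and 0.39 with LPS (SE 0.0866, adjusted p = 0.0038). The difference between these was 0.32 (SE 0.129) and did not pass (adjusted p = 0.33).

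KLF10 and KLF11, the TGF-β-inducible members, had lower means with LPS in both arms. KLF10 was at 186, 192 and 200 CPM in scramble, 146, 167 and 185 CPM in scramble with LPS, 248, 232 and 222 CPM in KD, and 159, 135 and 148 CPM in KD with LPS. Without LPS every KD library was above every scramble library, and with LPS the arms overlapped. KLF10 was 1.22-fold higher in KD without LPS (log2 fold change 0.29, SE 0.0748, adjusted p = 0.014 from edgeR's test), and the value was 0.26 without scramble replicate 1 (adjusted p = 0.053), 0.28 without scramble replicate 2 (adjusted p = 0.059) and 0.24 without KD replicate 1 (adjusted p = 0.068), so that the size held and the call did not. With LPS the value was -0.17 (SE 0.0972, adjusted p = 0.22). LPS lowered KLF10 1.59-fold in KD (-0.67, SE 0.0822, adjusted p = 6.7e-05), and in scramble its value was -0.20 (SE 0.0908, adjusted p = 0.18). The interaction of -0.45 (SE 0.125) gave adjusted p = 0.097 with edgeR and 0.018 with DESeq2.

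KLF11 was at 16.1, 15.3 and 16.8 CPM in scramble, 9.92, 8.03 and 11.6 CPM in scramble with LPS, 15, 13.1 and 14.9 CPM in KD, and 4.92, 7.12 and 8.61 CPM in KD with LPS. All libraries with LPS lay below all libraries without. LPS lowered KLF11 1.61-fold in scramble (log2 fold change -0.69, SE 0.145, adjusted p = 0.0077 from edgeR's test) and 2.08-fold in KD (-1.06, SE 0.196, adjusted p = 0.0021). The KD differences of -0.16 without LPS (SE 0.116, adjusted p = 0.34) and -0.52 with LPS (SE 0.223, adjusted p = 0.11) did not pass.

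Of the 10 members, 5 were called in KD without LPS, with KLF2, KLF5 and KLF10 higher and KLF4 and KLF7 lower. Of all 16217 genes tested, 27.2% were called in that comparison. For 4 members the difference was also at least 2-fold, as for 7.77% of all genes, and for 6 the groups did not overlap, as for 42.5%. With LPS, 8 of 10 members were called, 4 higher (KLF2, KLF3, KLF5 and KLF6) and 4 lower (KLF4, KLF7, KLF9 and KLF15), against 26.9% of 15981 genes. KLF2, KLF4, KLF5 and KLF7 differed at least 2-fold, as did 8.48% of all genes, and the groups did not overlap for 7 members, against 40.6%. The median log2 fold change of the members was 0.08 without LPS and -0.25 with LPS, beside 0.02 and 0.03 over all genes. The 2 comparisons use different libraries. The 10 members were chosen with earlier results of these data known, so these shares are no test of the KLF family. Of the other KLF and SP genes, 1 of 12 tested was called in KD without LPS and 0 of 11 with LPS. With libraries scaled by their totals alone, the median of all genes without LPS moved to 0.13, and the share of called genes that were higher went from 44.5% to 61.4% without LPS and from 47.2% to 59.2% with LPS. Under that scaling the members called numbered 6 without LPS, KLF15 being the addition (log2 fold change 0.36, adjusted p = 0.049), and 7 with LPS, KLF15 being the loss (-0.42, adjusted p = 0.07).

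**Figure D3:**
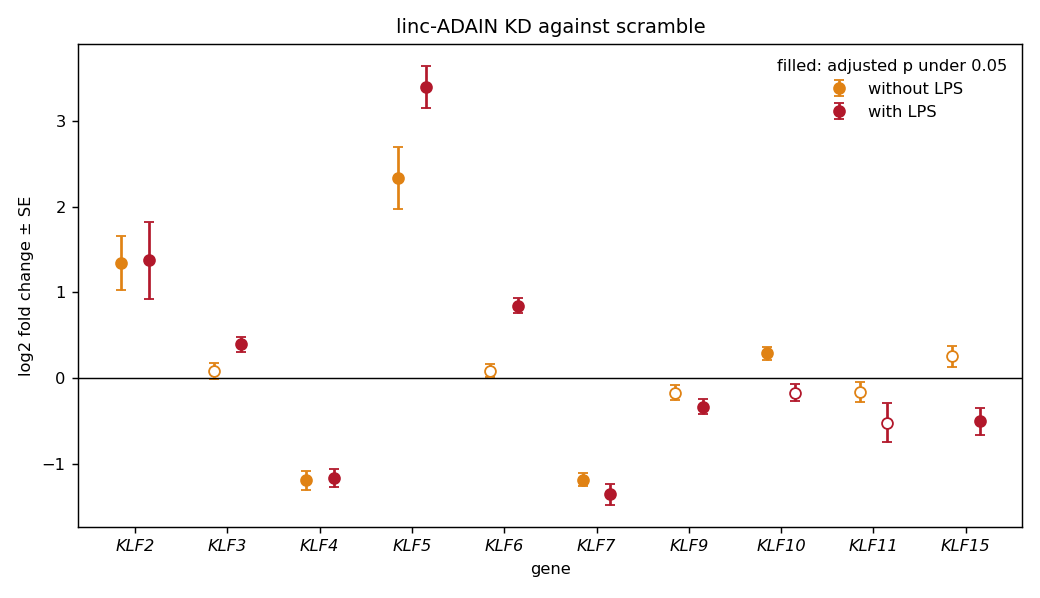
Log2 fold change of KD against scramble for each KLF gene, without LPS and with LPS; points are edgeR estimates, bars their standard error, and filled points have an adjusted p under 0.05. KLF5 has the highest values, 2.33 and 3.40, and KLF6 is near 0 without LPS and at 0.84 with it.

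LPS called 7 of 10 members in each arm, where 14.3% of 15920 genes were called in scramble and 11.3% of 16169 in KD. In scramble 4 rose, KLF3, KLF5, KLF9 and KLF15, and 3 fell, KLF6, KLF7 and KLF11. In KD 3 rose, KLF3, KLF5 and KLF9, and 4 fell, KLF6, KLF7, KLF10 and KLF11. Changes of at least 2-fold were seen for 3 members in each arm, against 2.68% and 2.25% of all genes. These were KLF5, KLF6 and KLF15 in scramble and KLF5, KLF7 and KLF11 in KD. Libraries with and without LPS did not overlap for 8 members in scramble and 7 in KD, against 32.1% and 27.3% of all genes. The median log2 fold change of the members was 0.07 in scramble and 0.09 in KD, beside 0.02 and 0.01 over all genes. With scaling by totals alone the share of called genes that were higher with LPS in KD went from 46.9% to 35.2%, and again 7 members were called in each arm. Of the other KLF and SP genes, LPS called 2 of 11 tested in scramble and 2 of 13 in KD. The choice of the 10 members limits these shares too. The interaction called 1 member, KLF6, where 1.28% of 17173 genes were called.

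**Figure D4:**
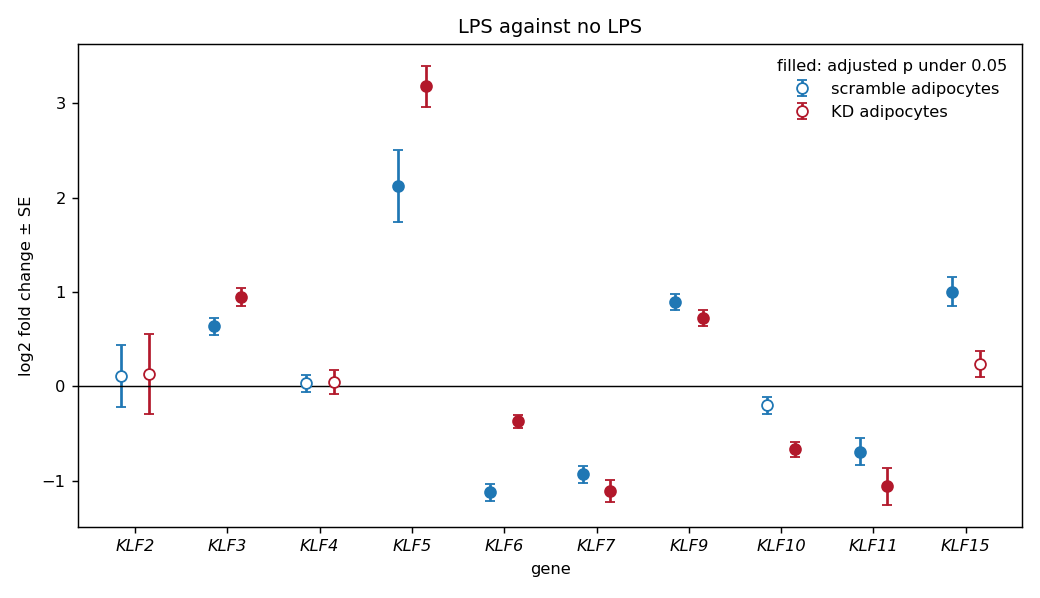
Log2 fold change of LPS against no LPS for each KLF gene in scramble and in KD adipocytes; points are edgeR estimates, bars their standard error, and filled points have an adjusted p under 0.05. KLF6 is at -1.12 in scramble and -0.37 in KD, and KLF15 at 1.00 and 0.24.

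Among 11801 other genes averaging 50 or more counts, the profile over the 12 libraries most like that of KLF5 was that of PTGS2, the inducible cyclooxygenase of prostaglandin synthesis. The root mean square difference between their centred log2 CPM was 0.399, where KLF5 itself had a root mean square of 1.96. RCSD1, which codes for a protein that regulates actin capping, followed at 0.501 and RNF144B, a ubiquitin ligase gene, at 0.527. PTGS2 was at 6.85 ± 0.908 CPM in scramble, 35.7 ± 3.65 in scramble with LPS, 29.6 ± 7.14 in KD and 301 ± 45.8 in KD with LPS (SD, n = 3 each). RNF144B went from 0.409 CPM in scramble to 14.2 CPM in KD with LPS, and RCSD1 from 0.296 to 9.49 CPM. In all 4 genes the mean was lowest in scramble, highest in KD with LPS, and in between with either perturbation alone. This is a description over 12 libraries that share their groups.

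**Figure D5:**
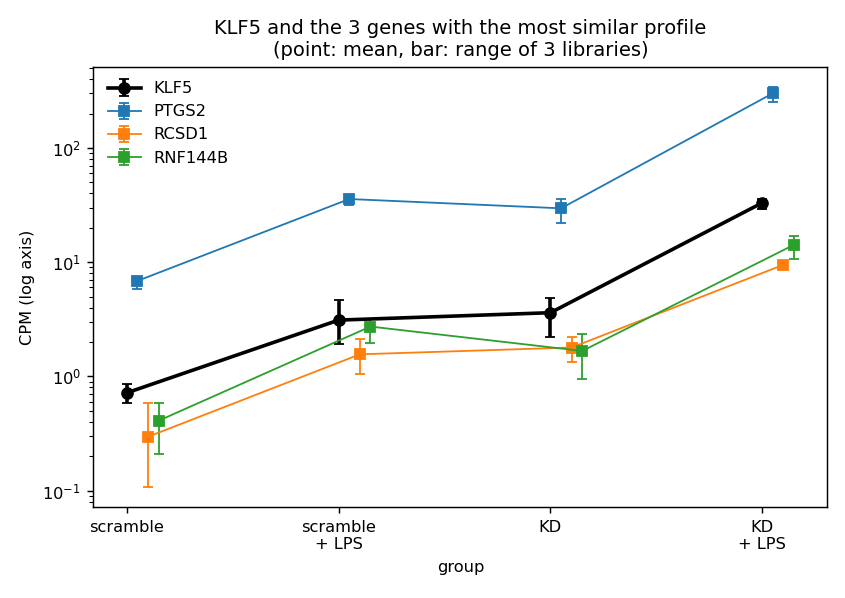
CPM (log axis) of KLF5 and of PTGS2, RCSD1 and RNF144B, the genes with the most similar profile, in the 4 groups; points are means and bars the range of 3 libraries. Each is lowest in scramble and highest in KD with LPS, where KLF5 is at 33.1 and PTGS2 at 301 CPM.

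The study addresses the stability of mRNAs, so the 3′ untranslated regions (UTRs) of the canonical transcripts were read for the AU-rich pentamer ATTTA and nonamer TTATTTATT, on the transcribed strand, where each nonamer contains a pentamer. The UTR of KLF5 is 1652 bases long and holds 5 pentamers, or 3.03 per kilobase, and 1 nonamer. No other member held the nonamer, which occurs in 8.43% of 19571 canonical 3′ UTRs. All 10 members held the pentamer, as did 67.4% of all UTRs, and 6 held at least 5, as did 28.8%. KLF7 held 20 in a UTR of 7076 bases, and KLF15 had the highest density at 3.66 per kilobase, beside a median of 1.5 over all UTRs. As all 10 members held the pentamer, its presence cannot separate those that rose from those that fell in KD. Counts of pentamers also depend on length. The UTRs of the members had 899 to 7076 bases, beside a median of 1060 over all UTRs.

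Of 9 genes for proteins that modify or bind KLF5 or its mRNA, 8 were tested. IGF2BP2, an mRNA-stabilizing protein, was at 210 ± 9.74 CPM in scramble, 161 ± 6.57 in scramble with LPS, 141 ± 7.19 in KD and 122 ± 4.36 in KD with LPS (SD, n = 3 each). It was lower in KD without LPS (log2 fold change -0.58, SE 0.0754, adjusted p = 0.00013 from edgeR's test) and with LPS (-0.40, adjusted p = 0.0011), where it was the 1 gene of the list called. ELAVL1, the gene of HuR, fell by 0.23 on the log2 scale in KD without LPS (adjusted p = 0.037) and had a value of -0.08 with LPS (adjusted p = 0.54). The ubiquitin ligase genes WWP1 and SMURF2 did not pass in either KD comparison. Mean IGF2BP2 RNA was lowest in KD with LPS, where KLF5 was highest, and a link between them was not tested. The paper saw IGF2BP2 and HuR protein unchanged by KD. In KD it found more KLF5 mRNA bound to IGF2BP2 and less to HuR, and a slower decay of KLF5 mRNA after actinomycin D. It proposes that IGF2BP2 mediates this stabilization. The counts here measure no protein, binding or decay.

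Among 15 genes of the adipogenic cascade around the KLF members, 14 were tested, and in KD without LPS 1 was higher and 8 lower. EGR2, the partner of KLF4, was the higher one, at 10 ± 1.76 CPM in scramble and 22.8 ± 2.67 CPM in KD (log2 fold change 1.19, adjusted p = 0.00011 from edgeR's test), opposite in direction to KLF4. SREBF1 (-1.23), STAT5A (-0.80) and FABP4 (-1.65) were lower. With LPS 2 were higher and 8 lower in KD. PPARG, a target of both KLF5 and KLF2, was at 71.4 ± 5.92 CPM in scramble with LPS and 23.8 ± 4.14 CPM in KD with LPS (-1.59, SE 0.124, adjusted p = 5e-07), while KLF5 was 10.5-fold higher there. In KD without LPS PPARG (-0.87, adjusted p = 0.0023), ADIPOQ (-1.39, adjusted p = 0.0094) and PLIN1 (-1.14, adjusted p = 0.014) were also lower. CEBPA was not called there (-0.41, adjusted p = 0.32). The paper reports the opposite direction, with mRNA and protein of PPARγ, C/EBPα, FABP4, perilipin and adiponectin raised by KD. The cause of this difference was not tested. CEBPD, upstream of KLF5, rose with LPS in scramble (1.42, adjusted p = 3e-06) and in KD (1.98, adjusted p = 2.2e-09), from 63.4 to 169 CPM and from 58 to 229 CPM. STAT5A also rose with LPS in both arms, from 53.8 to 122 CPM and from 30.8 to 104 CPM. In KD against scramble CEBPD was not called without LPS (-0.12, adjusted p = 0.3 from edgeR's test) and was higher with LPS (0.44, adjusted p = 0.007). CEBPB, also upstream of KLF5, rose with LPS in KD (0.52, adjusted p = 0.0019) and was not called in scramble (0.13, adjusted p = 0.39). In KD against scramble CEBPB was not called without LPS (0.28, adjusted p = 0.056) and was higher with LPS (0.68, adjusted p = 5.5e-05), where KLF4 was lower. Median log2 fold changes of this list were -0.60 and -0.69 in the KD comparisons and 0.12 and -0.56 with LPS in scramble and in KD. The list overlaps the adipocyte markers given above.

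Of 10 glucocorticoid-linked genes, all were tested, and in KD without LPS 4 were higher and 2 lower. HSD11B1, the enzyme that regenerates cortisol, went from 635 ± 116 CPM in scramble to 57.3 ± 14 CPM in KD (log2 fold change -3.47, adjusted p = 1.3e-07 from edgeR's test). TSC22D3 (1.78), SGK1 (1.54) and PER1 (0.94) were higher, and FKBP5 was lower (-0.63). KLF9 and KLF15 did not pass in that comparison. With LPS 6 were higher and 2 lower in KD, among them SGK1 (2.27) and TSC22D3 (1.56) higher, and FKBP5 lower (-1.08), while KLF9 and KLF15 were both lower. With LPS against no LPS, 4 of the list were higher and 2 lower in scramble, and 5 were higher and 1 lower in KD. TSC22D3 rose in scramble (1.07) and in KD (0.84), as did KLF9, while ERRFI1 fell in both (-0.95 and -0.61). SGK1 was the gene of this list called in the interaction (0.73, adjusted p = 0.007). Genes called in this list thus lay in both directions.

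Of the 7 kinase and MEF2 genes upstream of KLF2 and KLF4, 1 was higher and 4 lower in KD without LPS. MAPK7, which codes for ERK5, went from 41.1 ± 0.347 to 16.5 ± 1.74 CPM (log2 fold change -1.31, adjusted p = 2.3e-06 from edgeR's test) and MEF2C from 13.7 ± 2.37 to 3.55 ± 0.834 CPM (-1.95, adjusted p = 2.3e-05), and MEF2D was higher (0.63). KLF4 was lower and KLF2 higher in the same libraries. MEF2A was the gene of this list called in the interaction (1.00, SE 0.122, adjusted p = 0.00029). It fell with LPS in scramble from 75 ± 4.51 to 46.8 ± 2.81 CPM and was at 57.9 ± 5.5 and 72.4 ± 2.61 CPM in KD without and with LPS.

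Of 10 TGF-β pathway genes upstream of KLF10 and KLF11, 5 were called in KD without LPS and 5 with LPS in scramble, each of them lower. In KD with LPS 1 was higher and 4 lower, and with LPS in KD 1 was higher and 3 lower, SMAD2 being the higher gene in both (0.52, adjusted p = 0.00026, and 0.27, adjusted p = 0.043). TGFB1, which codes for the ligand TGF-β1, went from 104 ± 9.23 CPM in scramble to 66.3 ± 7.58 CPM in KD and to 77.1 ± 2.32 CPM in scramble with LPS (SD, n = 3 each), log2 fold changes of -0.64 (adjusted p = 0.00046 from edgeR's test) and -0.41 (adjusted p = 0.0058). In KD with LPS it was at 45.4 ± 4.25 CPM. KLF11 shared the fall with LPS but was not called in KD, and KLF10 was higher in KD without LPS.

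Among 11 corepressor and coactivator genes, FHL3, a LIM-domain cofactor of KLF3, had the smallest adjusted p in each of the 4 comparisons of groups. It was at 45.6 ± 5.25 CPM in scramble, 16.5 ± 2.15 in scramble with LPS, 25.3 ± 5.26 in KD and 9.73 ± 1.66 in KD with LPS (SD, n = 3 each). Its fall with LPS was -1.45 in scramble (adjusted p = 1.2e-05 from edgeR's test) and -1.38 in KD (adjusted p = 9.3e-05), while KLF3 rose. CREBBP, an acetyltransferase gene, was lower in KD (-0.44 without LPS and -0.30 with LPS). Of the 17 remaining KLF and SP genes, between 11 and 13 had enough counts in a comparison, and 1 was called in KD without LPS, where KLF12 fell from 15.1 ± 0.905 to 8.78 ± 0.297 CPM (-0.77, adjusted p = 0.00065). Between KD and scramble with LPS the smallest adjusted p of these genes was 0.17, for KLF16. KLF16 fell with LPS in scramble (-0.95, adjusted p = 0.00016) and in KD (-1.13, adjusted p = 4.7e-05), from 26.6 to 13.7 CPM and from 24.9 to 11.4 CPM. KLF12 rose with LPS in KD (0.61, adjusted p = 0.013).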

How the data were processed

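The authors pseudoaligned reads of 12 libraries (stranded mRNA kit) with kallisto 0.44.0 to human transcriptomes of GRCh38 and deposited estimated counts per gene name, neither scaled to library size nor to length. The annotation release and the summing program are not given in the sources used here. A row with no gene name (0.235% to 0.306% of a library) was left out. In R 4.3.3, the counts, rounded, of genes totalling 10 or more in the libraries of a fit were tested in edgeR 4.0.16 (TMM, quasi-likelihood F test, Benjamini-Hochberg adjustment over all genes, threshold 0.05), on the 6 libraries of each comparison, and on all 12 for the interaction. The standard error is the log2 fold change divided by the square root of F. CPM were scaled by TMM over all 12 libraries, and 0.1 CPM was added for the profile likeness. DESeq2 1.42.0, other scalings and filters, a fit on all 12 libraries, the replicate block and leaving out each library were the alternatives. Steps were tested on simulated data. Positions, transcript lengths and UTRs are from GENCODE release 44. All 10 members are named, and from each list up to 4 genes with the smallest adjusted p in the comparison described. Other genes are named for their level, their direction, their place beside a member or a report in the paper, chosen after values were seen. These are DLK1, SLC2A4, DCN, CEBPA and some values of CEBPB, CEBPD, PPARG, PLIN1, ADIPOQ, ELAVL1, WWP1, SMURF2 and FKBP5. The members and lists were chosen with earlier results of these data known. Counts at this depth limit KLF2 and KLF5, whose scramble libraries had 31 to 86 counts. Some results are not reported here.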

Additional observations from a re-analysis of the deposited data

Results flagged for a closer look

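KLF6 differed between the arms in its response to LPS. The interaction of KD with LPS was 0.76 on the log2 scale in edgeR's quasi-likelihood test with Benjamini-Hochberg adjustment (SE 0.112, adjusted p = 0.0015), since LPS lowered KLF6 from 362 ± 23 to 165 ± 17.5 CPM in scramble and from 383 ± 7.18 to 296 ± 8.04 CPM in KD (SD, n = 3 each). Its value was 0.68 to 0.82 with each library left out in turn and 0.74 to 0.77 over the other alternatives, and it stayed past the threshold in each.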

How the results depend on the processing

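Of 50 results on the members, 35 kept their direction and their side of the threshold under each alternative. Results that turned in sign all had main values smaller than their standard errors. For KLF2 the turned values were as low as -0.6986 with a library left out. With libraries scaled by their totals alone, the LPS effect on KLF4 was -0.0074 in scramble and -0.0021 in KD. The replicate number as a block gave -0.0427 for the LPS effect on KLF2 in KD and -0.0947 for its interaction, and took KLF2 in KD with LPS to 1.14 (adjusted p = 0.078). Same-numbered libraries correlated at -0.103 to 0.256 in their deviations from the group means. The values were 0.256, 0.086 and 0.067 for LPS in scramble, and -0.102, -0.027 and -0.103 for KD without LPS. With the block, LPS in scramble called 3260 genes beside 2274, and KD without LPS called 3857 beside 4411. Whether the numbers pair the libraries cannot be told from these values. With each library left out in turn, KLF3 in KD without LPS ranged from -0.0104 to 0.1319. For KLF2 the range was -0.0313 to 0.2763 for LPS in scramble, -0.6055 to 0.4939 for LPS in KD and -0.6986 to 0.3827 for the interaction, and for KLF4 it was -0.0133 to 0.105, -0.0692 to 0.1264 and -0.1004 to 0.1116. The interaction called 3 members without a filter on low counts and 3 with DESeq2 (KLF6, KLF10 and KLF15), and 1 to 2 with libraries left out. Over all genes it called 431 without a filter, 475 with DESeq2 and 92 to 243 with libraries left out, beside 219. The cause was not tested. LPS in scramble called 1187 to 2106 genes with libraries left out, beside 2274, the lowest without scramble replicate 2, and fewer libraries entered those fits. KLF11 in KD with LPS was called in the fit on all 12 libraries (adjusted p = 0.042) and without KD with LPS replicate 3 (0.044).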
